A study of Caenorhabditis elegans with 2 samples.

Results

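The long intergenic noncoding RNA genes of Caenorhabditis elegans with a linc- symbol were examined for sites of the zinc finger protein ZFP-3. They were chosen by symbol alone, as all genes starting with linc- in the Ensembl WBcel235 annotation, which gave 170 of 46890 nuclear genes. The data are chromatin immunoprecipitation sequencing peaks from whole L4 larvae at 48 hours, grown from hatchlings that had been starved after bleaching. The larvae were of strain RW12271, in which the allele st12271 inserts TY1, EGFP and 3xFLAG tags at the zfp-3 gene on chromosome X, and the tagged protein was recovered with an antibody to GFP. There is 1 group of 2 biological replicates, with no untagged or other control strain analysed here, and both replicates carry the same edited allele. Whole animals mix all tissues, so a site present in few cells and a weak site in many cells cannot be told apart.

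Long intergenic noncoding RNAs are transcripts without an evident coding frame that lie between protein-coding genes. The worm genes with these symbols were defined from RNA sequencing and transcript end data, and most have no assigned molecular function. A DNA-binding protein can meet such a gene at its own promoter, inside its transcribed body, or at a promoter it shares with a divergent neighbour. The annotation fitted the label in biotype for 169 of the 170 genes, and the exception, linc-171, is listed as ncRNA. It fitted less well in position, since 39 overlapped a protein-coding gene, 22 of them on the same strand. The longest gene was 6035 bp and the median 741 bp, and together they covered 211 kb.

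The sequences under the summits show what lay beneath the sites described below. Each holds a summit and 50 bases to either side in the WBcel235 (ce11) RefSeq genome, written 5′ to 3′ on the strand of the linc- gene, with the 11 bases around the summit in capitals. The site at linc-84 is not printed.
linc-128 (chrV:1151452-1151552, plus strand): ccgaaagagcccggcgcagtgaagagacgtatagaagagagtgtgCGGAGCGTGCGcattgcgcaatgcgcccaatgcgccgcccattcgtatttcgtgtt
linc-44 (chrII:5782118-5782218, minus strand): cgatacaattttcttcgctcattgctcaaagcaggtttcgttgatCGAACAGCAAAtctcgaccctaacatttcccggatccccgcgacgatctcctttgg
linc-103 (chrX:6255745-6255845, plus strand): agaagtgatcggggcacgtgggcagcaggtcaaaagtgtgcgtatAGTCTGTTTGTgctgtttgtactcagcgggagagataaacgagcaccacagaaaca
linc-78 (chrX:2242922-2243022, plus strand): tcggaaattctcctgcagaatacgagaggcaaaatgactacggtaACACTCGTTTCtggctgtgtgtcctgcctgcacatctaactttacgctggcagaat
linc-92 (chrV:5791029-5791129, minus strand): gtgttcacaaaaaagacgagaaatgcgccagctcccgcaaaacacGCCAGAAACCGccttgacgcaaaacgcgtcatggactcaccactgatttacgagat
linc-129, upstream summit (chrIII:10818484-10818584, plus strand): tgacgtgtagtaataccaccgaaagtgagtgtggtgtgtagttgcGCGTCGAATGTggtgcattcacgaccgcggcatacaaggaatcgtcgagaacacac
linc-129, downstream summit (chrIII:10819877-10819977, plus strand): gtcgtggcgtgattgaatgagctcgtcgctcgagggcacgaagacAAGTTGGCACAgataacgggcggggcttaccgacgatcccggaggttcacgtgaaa

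Few linc- genes carried a ZFP-3 site, and 1 of those sites, inside linc-128, was far stronger than the others. A gene was counted where a peak summit fell in its promoter window, which reached 1000 bp upstream and 200 bp downstream from the 5′ end, or inside the gene. The list used was the authors' conservative one of 2010 peaks, made from both libraries and thresholded by the irreproducible discovery rate (IDR), a measure of how well peak ranks repeat. By this rule 7 of the 170 genes, 4.12% (exact 95% interval 1.67 to 8.30%), had a summit, against 5.14% of all nuclear genes. In promoter windows alone it was 5 genes, 2.94% (exact 95% interval 0.962 to 6.73%), against 3.88%. Inside genes it was 2, 1.18% (exact 95% interval 0.143 to 4.19%), against 2.36%. Without piRNA genes, the first background was 7.25%, which also lies within the interval of the linc- share. These shares are no result about the linc- genes as a class. The intervals cover counting error only.

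The 7 genes were linc-128, linc-44, linc-103, linc-78, linc-92, linc-129 and linc-84, and they held 8 summits, since linc-129 had a pair. By chromosome, they were 2 of 33 linc- genes on V, 2 of 33 on X and 1 of 34 on II. The count was 1 of 22 on III, 1 of 22 on chromosome I and 0 of 26 on IV. Shares by chromosome were not calculated over all nuclear genes, so these small counts are no result about the members. The other 163 linc- genes had no summit. The signal of a peak is the authors' deposited strength, with a median of 82.3 and a maximum of 778 over the main list. At the 8 summits it ran from 52.7 to 404, with 6 above and 2 below that median.

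**Figure D1:**
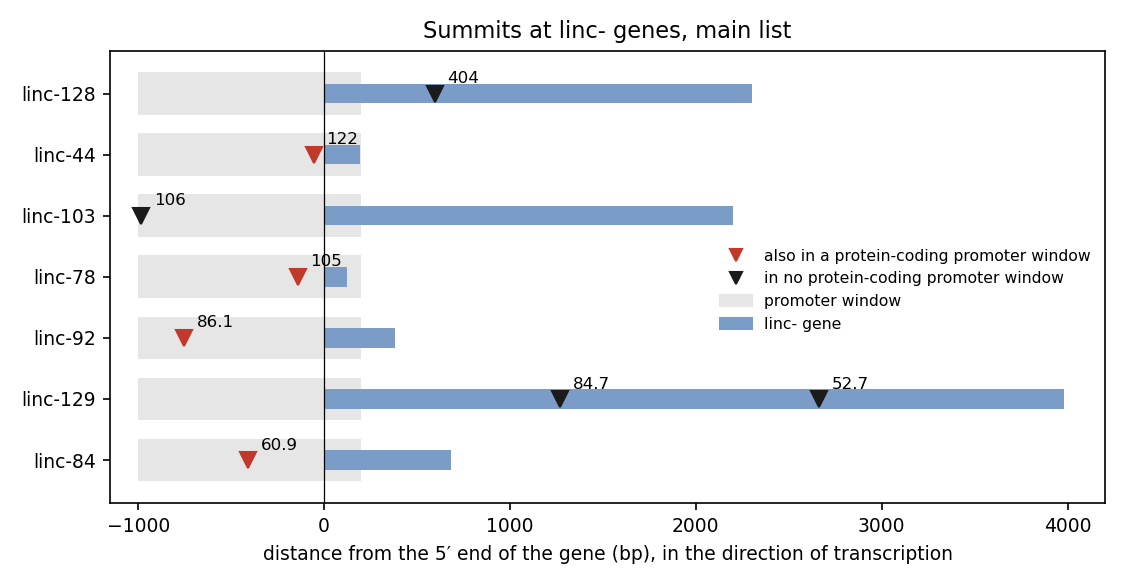
Summits of the main list at the 7 linc- genes, by distance from the 5′ end in bp (x axis), with each gene as a blue bar, its promoter window in grey and the peak's signal beside each triangle. Red triangles also lie in a protein-coding promoter window: the 4 at linc-44, linc-78, linc-92 and linc-84 are red, and those at linc-128, linc-103 and linc-129 are black.

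linc-128 had the strongest site of the group, well inside its transcribed body. The gene lies on chromosome V (1150906 to 1153207, plus strand, WBGene00219734) and is 2302 bp long with a single annotated exon. Its peak (1151402 to 1151612) had a signal of 404, rank 20 of the 2010 peaks, and a summit at 596 bp downstream of the 5′ end. No other annotated gene lay within 4769 bp of that summit, where the protein-coding gene cmd-1, which encodes calmodulin, begins on the same strand. The signal was 3.30 times that of the next linc- site within the same list. The peak was also narrower, at 211 bp, than the 336 bp of each of the other 7. Widths were compared among the linc- sites only and not over the 2010 peaks.

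Both libraries held the linc-128 site near the top of their own lists. In replicate 1 the overlapping peak had a signal of 215 and ranked 20 of 43564 ranked peaks, and in replicate 2 it had 175 and ranked 24 of 43966. The library summits lay 2 bp and 29 bp from the summit of the main list. linc-128 was the only linc- gene with a peak in the thresholded lists of both libraries. Of the 8 linc- sites, 1 overlapped a thresholded peak of both libraries, 3 of 1 library and 4 of neither. Over all 2010 main peaks these shares were 27.0%, 27.3% and 45.7%. The main list was made from the same libraries, so this is a description and no independent support.

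linc-44, linc-78, linc-92 and linc-84 had summits upstream of their 5′ ends that were at the same time in a protein-coding promoter window. In each case the nearest such neighbour ran in the opposite direction, with its 5′ end 396 to 905 bp from that of the linc- gene. A site at such a place cannot be assigned to a single gene from these data. The share was 4 of 8 linc- summits, against 38.0% of all 2010 summits. Of the 170 linc- genes, 79 (46.5%) had a promoter window that met one of a protein-coding gene, and 4 of the 79 had a summit in the linc- window. Of the 91 others, 1 did. The same split was not made over all nuclear genes, so these small counts have no background, and the difference was not tested.

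linc-44 (chromosome II, 5781921 to 5782113, minus strand, WBGene00219675) is a short gene of 193 bp with the summit closest to its 5′ end. Its peak (5782000 to 5782335) had a signal of 122, rank 406, and a summit at -55 bp. The same summit lay 352 bp upstream of K05F1.6, which RefSeq describes as a protein with a major facilitator superfamily profile. It also lay 44 bp from a tRNA gene, F10C1.t1 in RefSeq, and it was the only linc- summit within 100 bp of one, against 10.1% of all summits. Closer still was the noncoding RNA gene F10C1.16, at 41 bp from the summit. The peaks in the libraries had signals of 54.3 and 57.0, at the 98.4 and 98.9 percentile of their lists, and replicate 2 alone held it in its thresholded list.

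linc-78 (chromosome X, 2243115 to 2243239, plus strand, WBGene00219643) is 125 bp long and lies beside a ribosomal protein gene. The peak (2242804 to 2243139) had a signal of 105, rank 599, and a summit at -143 bp, which is 354 bp upstream of rpl-11.2. The product of that gene is part of the large subunit of the ribosome. linc-78 also overlaps the 3′ part of AH9.1, a putative G protein-coupled receptor gene in RefSeq. A further noncoding RNA gene, AH9.7, lay 143 bp from the summit, as far as linc-78 itself. Signals in the libraries were 48.8 in replicate 1 and 62.1 in replicate 2, where the peak passed the threshold.

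linc-92 and linc-84 had weaker sites that passed in neither library alone. linc-92 (chromosome V, 5789946 to 5790325, minus strand, WBGene00219698) had a peak (5790911 to 5791246) with a signal of 86.1, rank 912, and a summit at -754 bp. This summit lay closer to F44E7.9, described in RefSeq as a Rab5-interacting protein, at 151 bp upstream of its 5′ end. It was also in the window of nhr-142, a nuclear hormone receptor gene, at -526 bp. linc-92 lies within the span of nhr-142 and on its strand. Library signals at linc-92 were 43.8 and 38.7.

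linc-84 (chromosome I, 8865945 to 8866624, plus strand, WBGene00219592) had a peak (8865370 to 8865705) with a signal of 60.9, rank 1658, and a summit at -407 bp. That summit was in an exon of F55H12.7, an uncharacterized protein-coding gene, 11 bp downstream of its 5′ end. Library signals at linc-84 were 29.8 and 35.5, and the library summits lay 43 bp and 38 bp to either side of the main one. Its score of 862, the authors' scaled IDR, was close to the lowest score in the list, 830. The highest score of 1000 was held by 5 of the 8 linc- sites and by 1377 of all 2010 peaks. It is thus common in the whole list and no trait of the linc- sites.

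linc-103 and linc-129 had sites apart from any protein-coding promoter window. linc-103 (chromosome X, 6256778 to 6258976, plus strand, WBGene00219743) had an intergenic peak (6255627 to 6255962) with a signal of 106, rank 580. Its summit at -983 bp was just inside the window, and the nearest protein-coding 5′ end, of W05H9.4, lay 7853 bp away. Library signals there were 55.5 and 51.5, at the 98.6 and 98.5 percentile of their lists, and the peak passed the threshold in replicate 1 alone. In replicate 2 the summit of that peak lay 29 bp farther upstream and so outside the window.

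linc-129 (chromosome III, 10817263 to 10821245, plus strand, WBGene00219601), at 3983 bp, was the longest of the 7 genes and carried a pair of summits in its body. The peak nearer the 5′ end (10818366 to 10818701) had a signal of 84.7, rank 946, with a summit at 1271 bp, in the intron. The other (10819759 to 10820094) had a signal of 52.7, rank 1814, with a summit at 2664 bp, in exon 2 and also within the noncoding RNA gene K11D9.8. Its score of 854 was the lowest at any linc- site, below the 862 of linc-84. The neighbour sca-1, which encodes a calcium pump of the sarcoplasmic and endoplasmic reticulum, starts 413 bp from the 5′ end of linc-129 on the opposite strand. The summits lay 1684 bp and 3077 bp upstream of sca-1, outside its window. Library signals were 46.6 and 29.4 at the first summit and 41.5 and 27.0 at the second, so both were higher in the list of replicate 1 by percentile (97.7 against 91.8, and 96.7 against 88.9). As at linc-92 and linc-84, neither peak passed the threshold in either library alone.

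**Figure D2:**
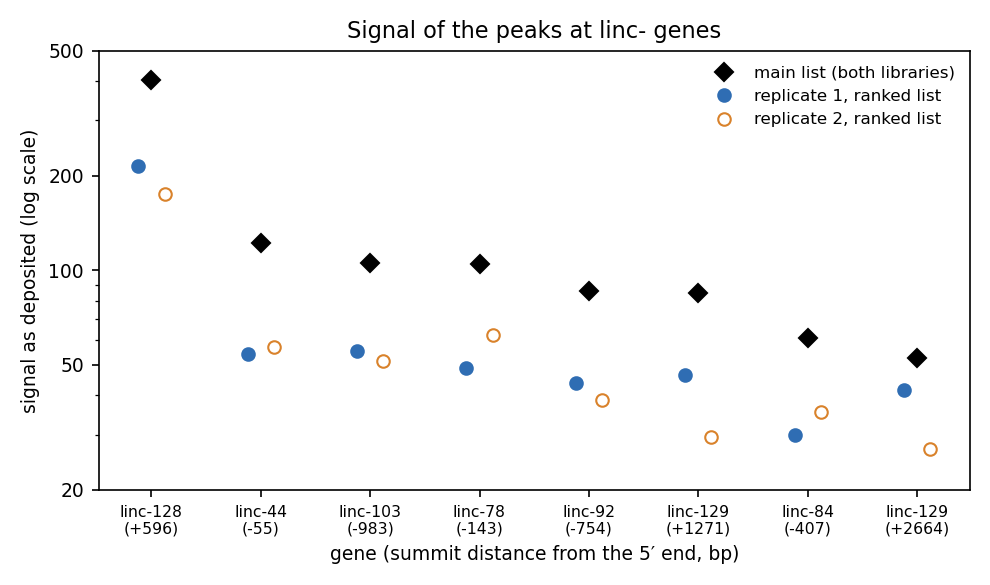
Signal (y axis, log scale) of the 8 peaks at linc- genes (x axis, with the summit's distance from the 5′ end in bp) in the main list and, for the overlapping peak, in the ranked list of each library. The linc-128 peak stands highest in all 3 lists, at 404, 215 and 175, and levels may be read within a list only.

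The libraries were also compared through their ranked lists, which hold peaks below the threshold and so cover more of the members. The lists do not state how deeply each library was read, so depth is unknown. In replicate 1, 84 linc- genes (49.4%) had a ranked summit by the same rule, against 46.4% of all nuclear genes. In replicate 2, 102 did (60.0%), against 47.6%. With the short and numerous piRNA genes left out of the background it was 58.5% and 59.5%, so the linc- share was then lower in replicate 1 and close in replicate 2. The strongest such peak per gene had a median signal of 20.7 in replicate 1, from 3.13 at linc-157 to 215 at linc-128. In replicate 2 the median was 20.2, from 7.45 to 175. Over each whole ranked list the median signal was 17.4 and 16.3.

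Of the 170 genes, 69 had a ranked summit in both libraries, 15 in replicate 1 only, 33 in replicate 2 only and 53 in neither. This split was not made over all nuclear genes, so it has no background and is no trait of the linc- genes. Across the 69 genes the strongest signals correlated with a rho of 0.554 by Spearman ranks and an r of 0.673 by Pearson on log10 signals. Without the 7 genes of the main list, rho was 0.421 across 62. These values are descriptions across genes, which are not independent replicates and share their libraries. In the thresholded lists of single libraries the counts were smaller: 2 linc- genes in replicate 1 (1.18%, against 2.52% of all nuclear genes) and 3 in replicate 2 (1.76%, against 2.68%). Those in replicate 1 were linc-128 and linc-103, and those in replicate 2 were linc-128, linc-44 and linc-78. The other thresholded list of the series, with 1458 peaks, held 6 (3.53%, against 3.89%), which were the 7 without linc-84. That list held linc-129 by its upstream peak only, and the downstream peak was absent.

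**Figure D3:**
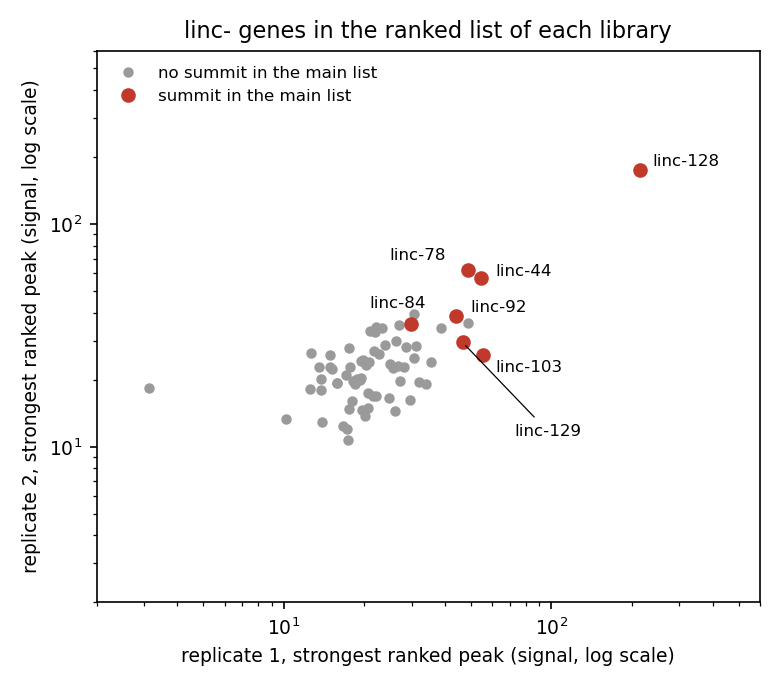
Strongest ranked peak in the window or body of each of the 69 linc- genes with one in both libraries, replicate 1 (x axis) against replicate 2 (y axis), both in signal on log scales. The 7 genes with a summit in the main list are red, and linc-128 stands apart at 215 and 175. For linc-103 the replicate 2 value (25.7) is from a peak other than the one overlapping its main peak.

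Some linc- genes stood high in both ranked lists without a summit in the main list. Of the 6 genes in the top 5% of both ranked lists, 4 were in the main list and the others were linc-72 and linc-90. The main list was made from the same libraries, so that overlap is a description only. The count of 6 was not repeated over all nuclear genes and has no background. linc-103 was not among the 6 because its replicate 2 peak had a summit outside the window. Another peak, of 25.7 at the 86.7 percentile, was used there. linc-72 (chromosome II, 8819542 to 8820163, plus strand) had its strongest ranked summit in an exon in each library, with signals of 48.9 and 35.97, at summits 225 bp apart. A summit of the main list (8820167, signal 37.4, rank 1890) lay 4 bp beyond its 3′ end, inside an exon of F46C5.1, and so was not counted for linc-72. linc-90 (chromosome III, 352222 to 355402, plus strand) had signals of 38.7 and 34.0, but its library summits were 581 bp apart. The one in replicate 1 lay 256 bp upstream of the protein-coding gene gei-4, in its promoter window. The one in replicate 2 also lay in an intron of gei-4.

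linc-105 and linc-76 on chromosome III and linc-164 on chromosome II followed. linc-105 had 30.6 in replicate 1 and 39.7 in replicate 2, at summits 1504 bp apart, one in its intron and the other upstream of it. linc-76 had 31.2 and 28.3, both inside introns of linc-76 and of Y48A6C.8. These summits lay 27 bp and 186 bp downstream of the 5′ end of Y48A6C.8, a protein-coding gene, and so in its promoter window. linc-164 had 28.7 and 27.9 at summits 62 bp apart in an exon. None of the 5 had a summit in any thresholded list.

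Just outside the promoter window lay 4 more genes, all within 2000 bp upstream or 500 bp downstream of the 5′ end. The strongest was at linc-48 on chromosome X, with a signal of 171 at -1749 bp, in intergenic sequence. linc-2 on chromosome III had one of 127 at 451 bp, in an exon of pcf-11, which encodes a factor of transcript 3′ end formation. linc-69 (91.4 at -1548 bp) and linc-15 (79.7 at -1531 bp) were the others. All 4 summits were outside protein-coding promoter windows.

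Other noncoding RNA classes give the scale of these counts. By the same rule 5.26% of 7763 ncRNA genes without a linc- symbol had a summit, 7 of 100 antisense RNA genes and 7.30% of 19973 protein-coding genes. Of the short RNA genes, 41.3% of 612 tRNA genes and 24.9% of 346 snoRNA genes did, as did 12.4% of snRNA and 7.66% of miRNA genes. piRNA genes had 0.794% and pseudogenes 1.41%. The exact 95% interval of linc- genes overlapped those of ncRNA, antisense RNA, protein-coding, snRNA, miRNA and pseudogene classes, lay below those of tRNA and snoRNA genes and above that of piRNA genes. Neighbouring genes can share a summit, so these intervals are a guide only. piRNA genes are 15363 of the 46890 nuclear genes.

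Gene length enters such shares, since a long gene can hold more summits. Per length, linc- genes held 3 summits in 0.211 Mb, or 14.2 per Mb (exact binomial 95% interval 2.93 to 41.5), against 15.2 for protein-coding genes, 162 for ncRNA genes and 20.05 for the whole genome. In promoter windows, which are the same length for every gene, ranked summits were found for 35.3% of linc- genes in replicate 1 and 44.1% in replicate 2. Over all nuclear genes these shares were 34.3% and 36.0%, and without piRNA genes 40.6% and 42.3%, which puts the linc- share below the background in replicate 1. The median signal of the strongest was 20.2 and 19.7 at linc- genes, against 20.4 and 18.7 over all nuclear genes.

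**Figure D4:**
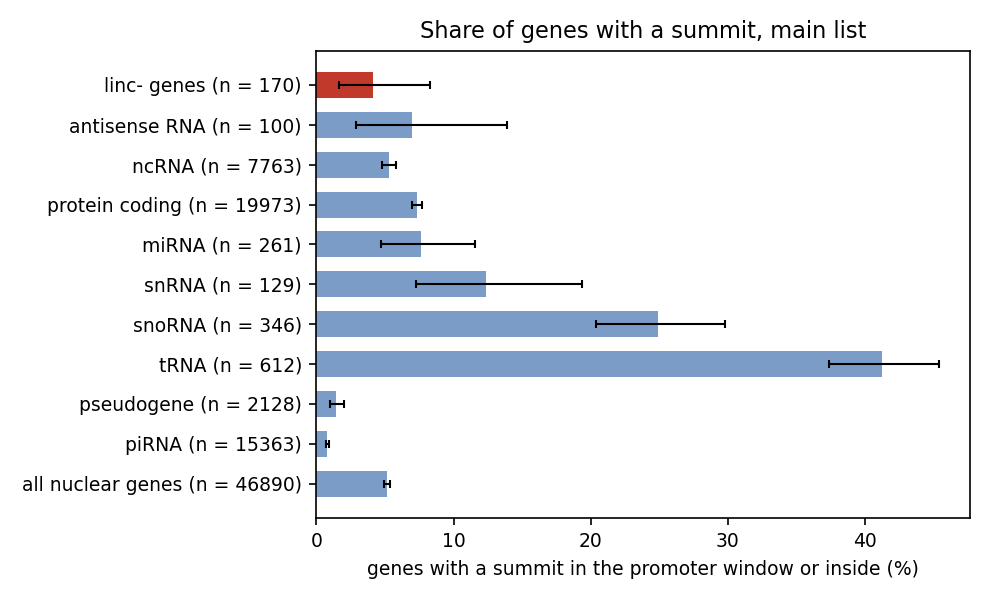
Share of genes with a summit of the main list in the promoter window or inside the gene (x axis, %), by annotated class, with exact 95% binomial intervals as error bars. The linc- genes (red, 4.12%) sit near all nuclear genes (5.14%), and tRNA genes reach 41.3%; the ncRNA class leaves out linc-171.

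Long noncoding RNA genes with other symbols were few. Of 25 further genes of the lincRNA biotype 1 had a summit, and of 57 anr- genes, which are antisense transcripts, 4 did. rncs-1, a noncoding RNA known to inhibit Dicer, had a summit in its promoter window, with ranked signals of 51.7 and 43.0. tts-1, a noncoding RNA linked to long life in insulin receptor mutants, had none in the main list, with ranked signals of 36.8 and 21.1. lep-5, which times the larval to adult change of the tail, had no ranked summit in either library.

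Base composition under the linc- summits was compared with that at other places as a description, with no test. Within 50 bases of the summit the median was 50.5% GC at the 8 sites, from 37.6% at linc-84 to 58.4% at linc-128 and at the downstream summit of linc-129. All 2010 summits had a median of 44.6%, and the 5′ ends of the 170 linc- genes 36.6%.

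The 6-base words searched were taken from earlier results on these data and from the tRNA B box, and none was tested. AGACGC or ACGCAG, which can overlap by 4 bases and were searched on both strands, occurred in 0 of 8 linc- windows, in 13.8% of the 2010 summit windows and in 3.50% of windows of the same length at the 5′ ends of all nuclear genes. At 100 bp each side they occurred at linc-92 and at the downstream summit of linc-129. GTTCGA, the core of the B box inside tRNA genes, occurred in 1 of 8, at linc-44, where it is printed above as its reverse complement, against 9.50% of all summit windows and 4.04% of 5′ end windows. That copy lay 38 bp outside the nearby tRNA gene, and a further copy, beyond the printed bases, lay inside it. A match is a description of letters and not a binding site.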

How the data were processed

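Per the file headers and notes, the authors deposited peak lists for each library and for both together, in ce11 coordinates. The deposited signal is a peak strength with no scale stated in these sources, and the score is the authors' scaled IDR, per the narrowPeak layout. For the aligner and peak caller: not given in the sources used here. Replicate numbers came from the labels. Genes came from Ensembl release 115 (WBcel235), and all 170 symbols were found in the RefSeq table. Summits were assigned with pandas 2.3.3 and numpy 2.4.6, and intervals are exact binomial (scipy 1.17.1). Assignment was tested on simulated data. Library values are the strongest ranked peak overlapping a main peak, or the strongest with a summit in the window or gene. The 2010 peaks of the main list were all present in a ranked list of the series. With 1 group there is no contrast, so no test was made. The members and lists were chosen with earlier results of these data known. Every linc- gene with a summit was named, plus the 5 highest in both ranked lists without one; genes outside the window, linc-61 and linc-157 were named after their values were seen. Alternatives were other lists, windows, overlaps and distances.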

Additional observations from a re-analysis of the deposited data

How the results depend on the processing

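Of 55 alternative values, 22 moved and 33 did not, meaning counts within 1.5 times and, for density, a value within its wide interval of 2.93 to 41.5 summits per Mb. Density itself fell from 14.2 to 4.74 per Mb with either library alone or the 500 strongest peaks, and to 9.48 in the other list of the series and among the 1005 strongest peaks, so it rests on 1 to 3 summits. In the lists of single libraries the count of linc- genes ran from 2 to 3 in place of 7, in promoter windows from 1 to 2 in place of 5 and inside genes 1 in place of 2. Summits shared with protein-coding windows ran from 0 to 2 in place of 4, and those near a tRNA gene from 0 to 1 in place of 1. Each single list has fewer peaks (931 and 933). With the 500 strongest peaks the counts were 2 genes, 1 by window, 1 inside and 1 shared summit. The shorter window gave 3 genes by window. The longer one gave 11 genes, 9 by window, and 8 shared summits, since protein-coding windows lengthened too. Leaving out summits in protein-coding windows left 3 genes, 1 of them by window. Counting any peak that overlapped the gene by at least 1 bp gave 5 genes inside. Counting 250 bp past the 3′ end, chosen after seeing the data, added linc-72 and linc-61, for 4 inside. The 6-mers appeared at 2 genes within 100 bp in place of 0. No paired analysis was possible because there is 1 group. The small number of members limits every share. For the changed windows, overlap rules, lengthened genes and strongest peaks, no share over all nuclear genes was calculated. Those counts therefore have no background.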
